A study of Mus musculus with 3 samples.

Results

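Prrx1, Prrx2, Foxd1 and Meis2 are 4 of the 296 genes whose transcripts were counted, cell by cell, in sections of mouse embryos. They were chosen by name, as factors known for patterning limb, face and stroma, and not by their values. The samples were whole wild-type embryos cut sagittally: 2 sections of 2 embryos at embryonic day 9.5 (E9.5), labelled as imaging regions 0 and 1 and called section 1 and section 2 here, and 1 section of 1 embryo at E15.5. All 3 embryos share the wild-type genotype, and the labels name no treatment. The method was multiplexed error-robust fluorescence in situ hybridisation (MERFISH), which reads single RNA molecules in place through codes built up over rounds of imaging, run on the Vizgen MERSCOPE platform. The title of the series names endothelial heterogeneity as its subject, so the probe panel was not built around these 4 genes.

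All 4 genes encode transcription factors that give cells an address in the embryo. Prrx1 and Prrx2 are paired-related homeodomain proteins of limb, face and body-wall mesenchyme, and mice that lack both have more severe limb and face defects than mice that lack either. Foxd1 is a forkhead factor known for the stromal progenitors of the kidney, for part of the optic and forebrain field, and for mesenchyme that gives rise to pericytes. Meis2 is a homeodomain protein of the TALE class, known for the proximal limb, the cranial neural crest and developing forebrain neurons.

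The letters before the start sites of these genes are shown because factors of the members' own kind bind short cores of known letters. The core TAATTA is a common homeodomain site, and TGACAG is the core bound by Meis proteins. Both were searched on both strands of the 250 bases before each start site in RefSeq (GRCm38.p6); TAATTA reads the same on both strands, TGACAG reads CTGTCA on the other, and the cores share no overlap. TAATTA was in 4.84% of all 32851 promoters (1590) and TGACAG in 15.9% (5210). The Prrx1 promoter (chr1:163313651-163313900, minus strand) held TAATTA 173 bases before the start, and the Foxd1 promoter (chr13:98353995-98354244, plus strand) held TGACAG 50 bases before the start. Neither core was in the windows of Prrx2 (chr2:30845117-30845366, plus strand) or Meis2 (chr2:116064620-116064869, minus strand). A match is a description of the letters, and no binding was measured in these samples. The 30 bases around the Prrx1 match and the whole Foxd1 window read 5′ to 3′ on the gene's strand, with the core in capitals.
Prrx1: gcaagggaatgaTAATTAgacctttatttt
Foxd1: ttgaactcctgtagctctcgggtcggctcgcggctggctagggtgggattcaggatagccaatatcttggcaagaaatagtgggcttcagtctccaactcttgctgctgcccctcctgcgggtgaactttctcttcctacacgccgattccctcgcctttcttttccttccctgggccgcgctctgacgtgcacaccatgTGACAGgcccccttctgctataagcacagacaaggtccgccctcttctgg

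Cells with at least 10 counts over the 296 genes were kept: 830 of 1077 in section 1, 6334 of 6835 in section 2 and 195915 of 219525 at E15.5, with 68572, 1034730 and 21227345 panel counts. A level here is counts per 10000 panel counts. The error of the code was read from 19 blank codes given to no gene, of which the highest stood at a level of 6.85 in section 1, 3.798 in section 2 and 4.49 at E15.5. Section 1 was small and shallow, with a median of 61 counts per cell against 128 in section 2 and 84 at E15.5. Areas in which Gnas, a broadly expressed gene, was below 0.5 times its level in the median square held 45.2% and 32.03% of the E9.5 cells and 4.84% of the E15.5 cells. Blank codes were higher there than elsewhere (1.75, 1.35 and 1.59 times in the same order). Another cell's centre lay within 8 position units of 41.1 to 63.2% of cells, so a count can be placed in a neighbouring cell. The files give no unit for positions and no tissue names, so the places below are given by position only.

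Meis2 was detected in every section far above the blank codes, Prrx2 and Foxd1 clearly so only in section 2 and narrowly at E15.5, and Prrx1 never by more than 1.49 times the highest blank code. Levels are compared here across sections for 1 gene at a time, since probe numbers differ between genes. Meis2 had a level of 66.1 in section 1 (95% Poisson interval 60.1 to 72.4), 79.9 in section 2 (78.2 to 81.6) and 158.5 at E15.5 (157.9 to 159.0). The lowest of these was 9.64 times the highest blank code of its section, and the E15.5 level ranked 15 among the 296 genes. Meis2 was present in 22.3%, 36.5% and 38.4% of cells in the same order. Its counts at E15.5 were held by few cells: the 9182 cells with 10 or more Meis2 counts were 4.69% of cells and carried 49.98% of the counts, and the richest cell had 96.

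Prrx2 stood at 4.23 in section 1 (2.83 to 6.07), 42.2 in section 2 (40.9 to 43.5) and 6.66 at E15.5 (6.55 to 6.77). Only section 2 was far from its blank codes, at 11.1 times the highest, while the section 1 level was 0.617 times the highest. Foxd1 followed the same order, with 4.08 in section 1 (2.71 to 5.90), 27.1 in section 2 (26.1 to 28.1) and 8.10 at E15.5 (7.98 to 8.22). Its section 1 level was 0.596 times the highest blank code and its section 2 level 7.12 times. The pair of E9.5 embryos thus differed from each other by more than either counting interval for both genes, and section 1 gave no level for either that could be told from blank codes. Prrx2 was present in 3.13%, 27.4% and 5.97% of cells, and Foxd1 in 3.01%, 19.8% and 6.04%.

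Prrx1 was flat and low across the sections, at 8.31 in section 1 (6.30 to 10.8), 5.50 in section 2 (5.06 to 5.97) and 6.71 at E15.5 (6.599 to 6.82). It was 1.21, 1.45 and 1.49 times the highest blank code and was found in 6.14%, 7.59% and 5.91% of cells, against 5.30%, 5.83% and 4.45% for the blank code found in most cells. At E9.5 its counts lay mostly in the areas of low Gnas. The Prrx1 level there was 16.9 against 3.61 elsewhere in section 1 and 11.01 against 3.6 in section 2, which is 4.67 and 3.06 times. Without those areas Prrx1 was in 3.30% of section 1 cells and 5.78% of section 2 cells, under the highest blank codes at 5.05% and 6.06%. At E15.5 the same ratio for Prrx1 was 1.10. Meis2 went the other way at E9.5, with 9.46 in the areas of low Gnas against 97.1 elsewhere in section 1 and 24.6 against 99.0 in section 2. What part these areas had in the E9.5 results was not tested.

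**Figure D1:**
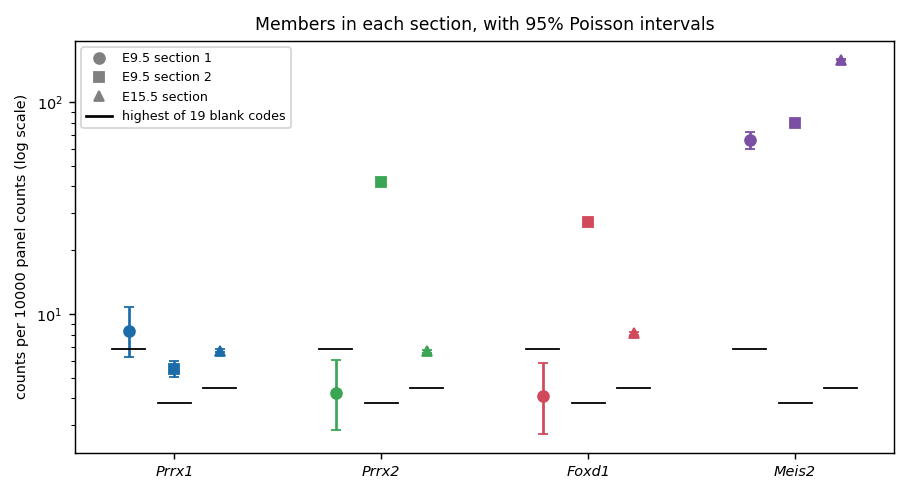
Level of each member (counts per 10000 panel counts, log axis) in the 3 sections, with 95% Poisson intervals that cover counting error only, beside the blank codes of the same section. Meis2 lies far above the blank codes in each section, Prrx2 and Foxd1 do so in E9.5 section 2, and Prrx1 lies just above the highest blank code throughout.

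Meis2 was higher at E15.5 than in both E9.5 sections, which were closer to each other, but no member was called between stages. Counts were summed per section and tested with edgeR's quasi-likelihood test with Benjamini-Hochberg adjustment over all 296 genes, which called 28 genes higher (9.46%) and 16 lower (5.41%) at E15.5; 0 of the 4 members were among them. The test has 1 residual degree of freedom and assumes that the lone E15.5 section varies like the E9.5 sections. The E15.5 minus E9.5 change of Meis2 was 1.13 ± 0.58 on the log2 scale (SE; adjusted p = 0.216), and E15.5 was 2.46 and 1.97 times the scaled levels of sections 1 and 2 (64.8 and 80.9, against 159). DESeq2 called Meis2 (1.19, adjusted p = 0.00118). By the same edgeR fit the change was -1.82 ± 1.00 for Prrx2 (adjusted p = 0.259) and -0.96 ± 1.02 for Foxd1 (adjusted p = 0.642). Without section 2 the change was 0.69 for Prrx2 and 1.02 for Foxd1, and without section 1 it was -2.47 and -1.55, so the sign depends on which E9.5 embryo is used. Prrx1 changed by -0.01 ± 1.04 (adjusted p = 0.995). In these whole-section sums, fewer cells that use a gene and less RNA per cell cannot be told apart.

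Of 75 listed mesenchymal and patterning factors, 18 were in the panel, the members included, and 2 were called higher, 3 lower and 13 not at all, beside 9.46% higher and 5.41% lower over all genes. Over all genes the 44 calls became 3 without areas of low Gnas and 11 with counts scaled to cell volume. The median change over the 18 was -1.07 on the log2 scale, against -0.15 over all 296 genes. The factors that rose at E15.5 by the same test were Klf4, a zinc-finger factor (3.08, adjusted p = 0.0264), and Maf, a basic leucine zipper factor (2.76, adjusted p = 0.0430). The heart and gut factor Gata5 (-3.12, adjusted p = 0.0264 by edgeR) fell against both E9.5 sections. The vascular progenitor factor Etv2 was also called lower (-2.66, adjusted p = 0.0322 by edgeR), but it was under the highest blank code in every section. Its counts were 25 in section 1, 334 in section 2 and 1136 at E15.5, against 47, 393 and 9533 for that code. Gata5 was also under that code at E15.5, with 8306 counts. The heart and gut factor Gata4 was called lower (-2.78, adjusted p = 0.0264), but its scaled level of 6.37 at E15.5 lay between 2.72 in section 1 and 84.6 in section 2.

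At E15.5 the counts of all 4 genes were more concentrated in part of the section than those of the blank codes. The section was divided into squares of 100 position units, 2713 of which held at least 20 cells, and the 10% with the highest level of a gene (271) are called its high squares. Foxd1 was the most concentrated: its high squares held 66.6% of its counts, with a level of 38.3 inside against 3.19 in the other squares. Meis2 followed with 62.3% (727 against 69.1), Prrx1 with 47.6% (37.4 against 3.78) and Prrx2 with 41.7% (30.1 against 4.22). The same measure was 29.96% for the median panel gene and 12.7 to 33.3% for the blank codes. A square's level ran from 0 through a median of 2.74 to 111 for Prrx1, from 0 through 3.63 to 121 for Prrx2, from 0 through 1.85 to 142 for Foxd1 and from 0 through 51.1 to 1517 for Meis2.

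Adjoining high squares were joined into groups. For Prrx1 these were 62, and the largest, of 138 squares and 10626 cells at x 800 to 3200 and y 3900 to 5700, held 37.4% of the Prrx1 counts at a level of 41.9, with 10 of its squares of low Gnas. The panel genes most raised there over the rest of the section were Sfrp2, a secreted Wnt modulator of mesenchyme (6.32-fold), the forkhead factor Foxf1 (5.97-fold) and Prrx2 (5.06-fold). Prrx2 had 76 groups, and its largest, of 92 squares and 7322 cells at x 800 to 2600 and y 4200 to 5700, lay within the same bounds, with a Prrx2 level of 33.3 and a Prrx1 level of 44.9. It held 23.2% of the Prrx2 counts. The largest groups of both genes thus lay in the same stretch of the section.

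Smaller Prrx groups showed 2 further patterns. Around x 1200 to 1600 and y 1800 to 2400, 12 Prrx2 squares (388 cells) had a Prrx2 level of 69.2 and a Prrx1 level of 50.6, and around x 2000 to 2400 and y 2700 to 3200, 9 Prrx2 squares (322 cells) had 52.0 and 31.0. These small groups share Mecom, a zinc-finger factor, among their raised genes (6.36- and 6.43-fold). They were shallow, with medians of 45 and 48 counts per cell against 84 in the section, and rested on 149 and 94 Prrx2 counts. In contrast, 16 Prrx2 squares (1836 cells) at x 2400 to 3200 and y 5500 to 6100 had a Prrx2 level of 35.9 with a Prrx1 level of 7.34, and the gene most raised there was Foxd1 (58.3, 7.66-fold), followed by Lox, a collagen-crosslinking enzyme (4.13-fold).

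Foxd1 had fewer and larger groups, 33 in all, and their companions differed from place to place. The largest, of 108 squares and 11229 cells at x 1700 to 5000 and y 4900 to 6700, held 34.2% of the Foxd1 counts at a level of 41.3, and the genes raised there included Stra6, the retinol transporter (3.98-fold), and Vtn, vitronectin (3.96-fold). The next, of 49 squares (5262 cells) at x 2100 to 3600 and y 5200 to 5800, had a level of 36.1 with the elastic-fibre genes Fbln5 (3.31-fold) and Eln (2.76-fold). A separate group of 36 squares (2135 cells) at x 3800 to 5000 and y 500 to 1500 had a Foxd1 level of 45.4 and a Meis2 level of 305, and the genes raised there included the nuclear receptor Nr2f2 (4.19-fold) and the signal Wnt4 (3.69-fold). The 20 squares at x 5000 to 5600 and y 3700 to 4700 (1512 cells) had a level of 26.8 with Egfl8 (3.91-fold) and Scn7a (3.31-fold).

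Meis2 was highest where neural genes were. Its largest group, 157 squares and 17065 cells at x 2300 to 4700 and y 6200 to 7400, held 50.1% of all its counts at a level of 796, and 90.5% of the cells there had Meis2. The genes most raised there were Fabp7 of radial glia (7.92-fold) and Stmn2 and Tubb2b of neurons (7.17- and 6.22-fold), while Prrx1, Prrx2 and Foxd1 stood at 0.599, 0.734 and 1.38. A second group of 35 squares (3893 cells) at x 1200 to 1900 and y 5800 to 6900 had a level of 704 with Nr2f2 (7.84-fold) and the neuronal sodium channel gene Scn3a (5.66-fold). A group of 18 squares (673 cells) at a level of 533 had a median of only 22 counts per cell and a mean blank level of 5.26, against 1.05 in the largest group, and 5 of its squares were of low Gnas. The remaining group named here, 14 squares (876 cells) at x 4100 to 4900 and y 600 to 1400, lay within the bounds of the Foxd1 group with raised Nr2f2, with a Meis2 level of 385 and a Foxd1 level of 59.96.

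**Figure D2:**
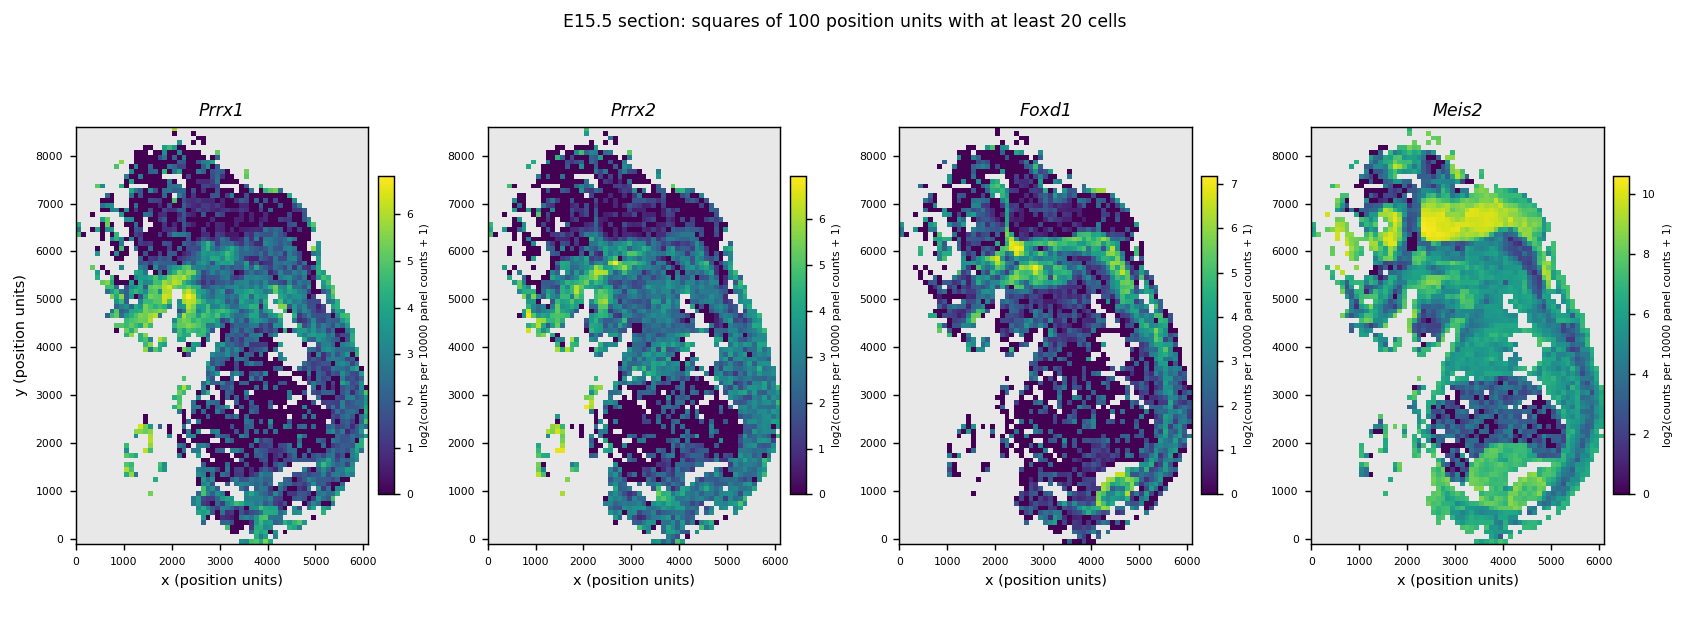
Level of each member (counts per 10000 panel counts) in squares of 100 position units with at least 20 cells of the E15.5 section, drawn at their positions in x and y. Prrx1 and Prrx2 have their largest groups of high squares in the same broad stretch at y 3900 to 5700, Foxd1 in several separate places, and Meis2 in the large area at y 6200 to 7400 where the other 3 are near 0.

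At E9.5, section 2 had 108 squares with at least 20 cells and 11 high squares per gene, while section 1 had 22 and 2, too few to describe domains. The 11 high squares of Prrx2 formed 1 group (503 cells, x 500 to 1000, y 1800 to 2400) with a level of 117 against 30.5 elsewhere, and 79.9% of the cells there had Prrx2. Its companions were Foxf1 (5.43-fold), smooth muscle actin Acta2 (4.68-fold) and the heart factor Tbx20 (3.30-fold), and the Prrx1 level there was 2.16. Foxd1 had 8 of its 11 high squares in 1 group (688 cells, x 700 to 1400, y 2300 to 2600) with a level of 93.7, and 65.3% of the cells there had Foxd1. The genes raised most there were the semaphorin and VEGF co-receptor Nrp2 (4.01-fold), the chemokine Cxcl12 (3.37-fold) and Tcf15, a factor of somites (3.23-fold).

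Meis2 likewise had 8 of its 11 high squares in 1 group in section 2 (557 cells, x 700 to 1300, y 2200 to 2500) at a level of 217, and the genes raised there included Hoxa5, a Hox factor of the neck region (4.56-fold), and Cxcl12 (3.82-fold). The bounds of that group overlapped those of the Foxd1 group, and the Foxd1 level in it was 81.2. Prrx1 did not form a domain of this kind. Its 11 high squares fell into 6 groups, 7 of the 11 were squares of low Gnas, and the largest group, 4 squares with 196 cells, rested on 35 Prrx1 counts. High squares of Prrx1, Prrx2, Foxd1 and Meis2 held 35.7%, 40.1%, 51.4% and 30.5% of the counts, against 30.1% for the median gene and 19.6 to 46.1% for the blank codes. Of these shares only that of Foxd1 was above the range of the blank codes.

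**Figure D3:**
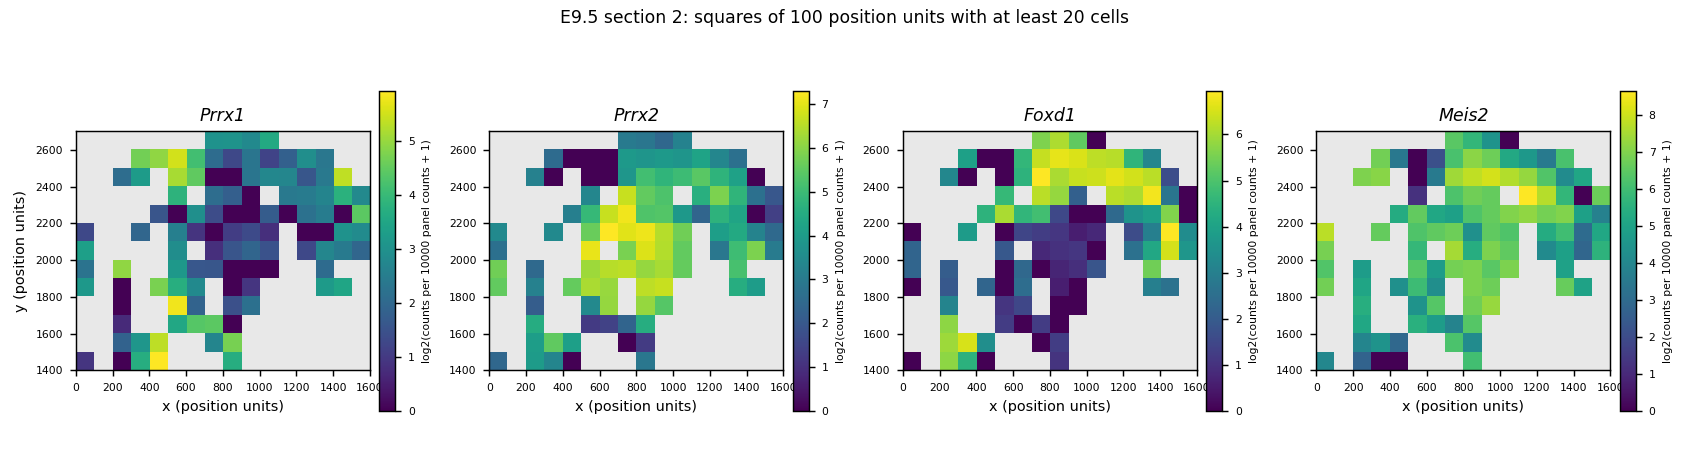
Level of each member (counts per 10000 panel counts) in squares of 100 position units with at least 20 cells of E9.5 section 2, drawn at their positions in x and y. The Prrx2 domain forms 1 group at y 1800 to 2400, the Foxd1 and Meis2 domains meet between y 2200 and 2600, and Prrx1 is scattered.

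To see which kinds of cell held the members, cells were clustered on the other 292 genes, so that a member's own level formed no cluster. Clusters were named, with the ending -like, only where at least 3 markers of a listed cell type were raised and more of its markers than of any other type's, at least 2, were among the 10 leading genes. At E15.5 there were 29 clusters. Cluster 10, mesenchyme-like (8576 cells, led by Foxf1, Sfrp2 and Crabp1), had the highest level of both Prrx1 (42.3, with 31.4% of all Prrx1 counts) and Prrx2 (38.8, with 29.1%). With coarser clusters (resolution 0.5) the highest levels were 17.7 and 16.5, in a cluster of 38387 cells that held 59.3% and 55.5% of the counts. The other mesenchyme-like cluster (cluster 5, 13039 cells, led by Dkk2 and Dcn) had 12.1 and 9.30. Endothelial-like cells (cluster 9) had 6.98 of Prrx1 and 6.24 of Prrx2, and the largest neuron-like cluster (cluster 2, 18369 cells) had 0.548 and 0.633.

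Cluster 10 also carried much of the members' counts in their high places. Inside the largest Prrx1 group it was 38.8% of the cells and carried 67.7% of the Prrx1 counts. In the group of Prrx2 squares where Prrx1 (7.34) was near its section level (6.71), cluster 10 was 28.7% of the cells. It carried 62.5% of the Prrx2 counts there. Within the second Foxd1 group it was 16.8% of the cells and carried 33.7% of the Foxd1 counts.

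Foxd1 was highest at E15.5 in cluster 16 (3739 cells, with Vtn and Stra6 among its leading genes), with a level of 56.0 and 15.98% of its counts. Its raised mesenchyme markers were Col1a2, Dcn and Lox, but it did not meet the rule on leading genes and was left unnamed. The Meis2 level of cluster 16 was 15.3, and only clusters 24 (11.1) and 1 (8.70) were lower. Cluster 21 (2552 cells, unnamed, with Wnt4 and Nr2f2 among its leading genes) combined Foxd1 at 33.7 with Meis2 at 327, and it carried 72.5% of the Foxd1 counts in the group at x 3800 to 5000 and y 500 to 1500. Cluster 8 (11935 cells, led by Htra1, Fibin and Fbln5) had a Foxd1 level of 19.5 and held 17.2% of its counts.

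Meis2 was high in the neuron-like clusters at E15.5, but not in every cluster with neuron markers raised. Cluster 2 (led by Scn3a, Tubb2b and Cd200) had a level of 650 and held 43.3% of all Meis2 counts, and 63.6% of the cells with 10 or more Meis2 counts belonged to it. The other neuron-like clusters, 11 and 27, had 280 and 527. Radial glia-like cells (cluster 13, 4174 cells) had 398, and a small unnamed cluster led by Foxp1 and Nts (174 cells) had 663, with neuron markers raised. Other unnamed clusters with neuron markers raised had 241 (cluster 4), 128 (cluster 25), 50.1 (cluster 28) and 37.75 (cluster 20, 2783 cells), against a section level of 158.5. Outside neural cells Meis2 stood at 199 in mural-like cells (cluster 17, led by Myh11), at 55.5 in endothelial-like cells and at 65.4 in cluster 10. It was at 243 in cluster 12 (5457 cells, unnamed, with the epithelial marker Spint2 raised). The lowest level, 8.70, was in cluster 1 (21340 cells, led by Car2).

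At E9.5 the sections were clustered together and gave 27 clusters, 25 of them with at least 50 cells. Prrx2 was highest in cluster 23 (123 cells, led by Foxf1, Wnt4 and Npr3) at 144, in the cardiac-like cluster 21 (137 cells) at 116, in cluster 5 (415 cells, led by Acta2 and Pdlim3) at 104 with 30.3% of all Prrx2 counts, and in the cardiac-like cluster 9 (282 cells, led by Gata4 and Gata5) at 79.5. Section 1 had 0 cells in each of clusters 5, 9, 21 and 23, so these Prrx2 levels come from section 2 alone. In clusters 23 and 21, 61.0% and 42.3% of cells lay in areas of low Gnas, against 0.482% in cluster 5 and 5.32% in cluster 9.

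Foxd1 at E9.5 was high in cluster 24 (81 cells, led by Lox and Flrt2; 133), in cluster 4 (658 cells, led by Stra6, Cxcl12 and Nrp2; 103, with 42.5% of its counts) and in cluster 2 (720 cells, led by Tcf15, Heyl and Zic1; 75.1, with 29.3%). In cluster 2 the Foxd1 level was 28.4 in section 1 and 76.6 in section 2, and it was above the section's mean in both. Of the cells of cluster 2, 67.2% lay in areas of low Gnas, against 20.7% in cluster 4 and 14.8% in cluster 24. Meis2 was highest in cluster 4 as well, at 202, with 123 in section 1 and 202 in section 2, although section 1 had only 12 cells there. Cluster 15 (186 cells, led by Epas1, Col15a1 and Rgs5) had Meis2 at 184 in section 1 and 181 in section 2. Prrx1 was highest in cluster 7 (297 cells, led by Higd1b, Lyve1 and Gkn3) at 69.0, with 47.4 in section 1 and 76.0 in section 2. In cluster 7, 78.1% of cells lay in areas of low Gnas, the mean blank level was 2.29 and the other 3 members had 0 counts.

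**Figure D4:**
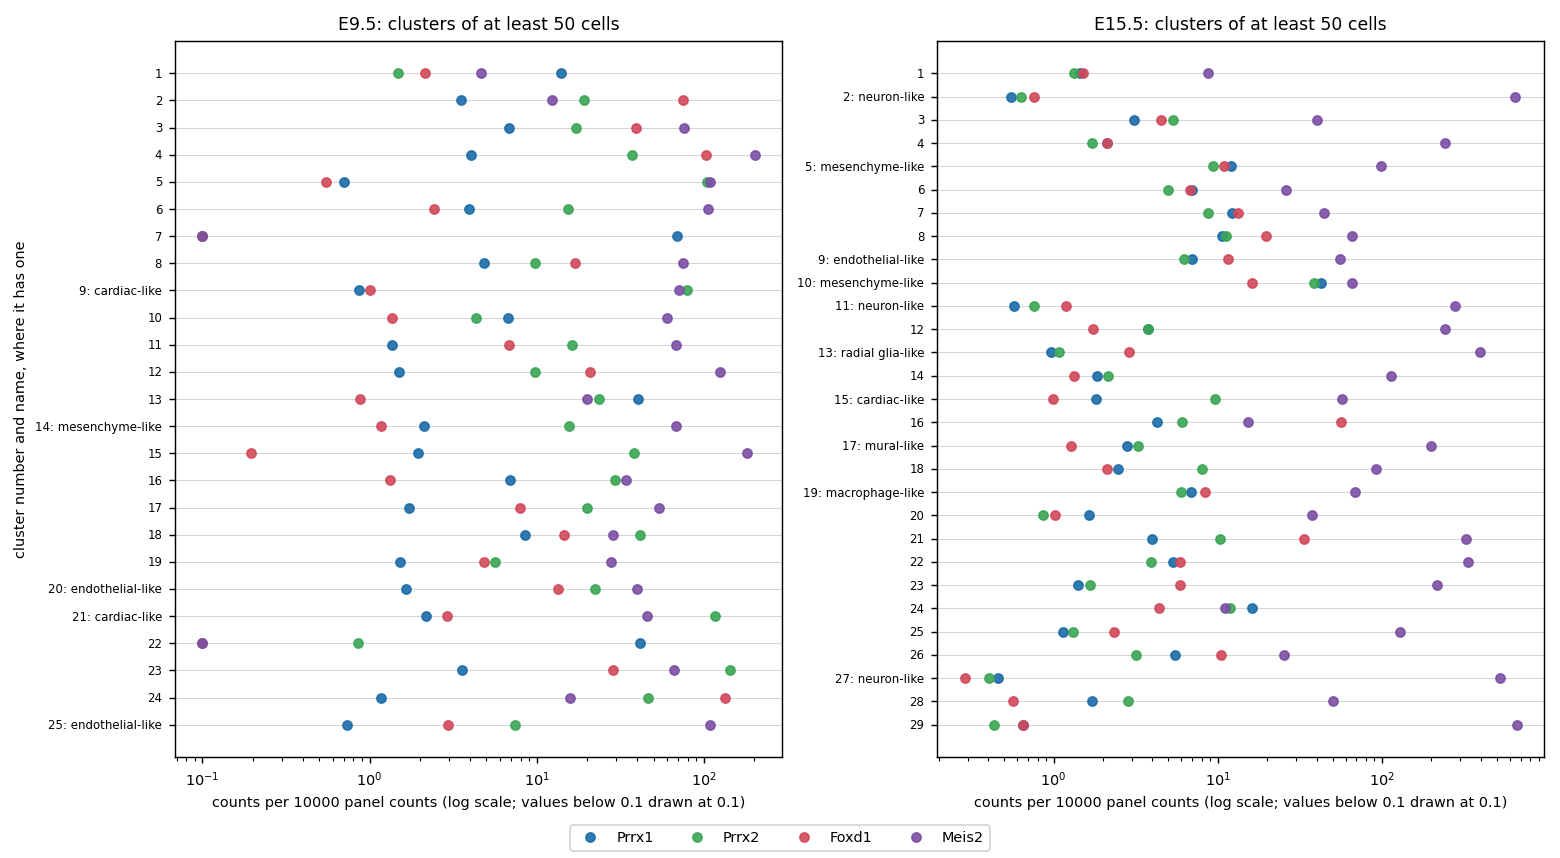
Level of each member (counts per 10000 panel counts, log axis) in the clusters of the E9.5 sections and of the E15.5 section, 1 row per cluster and 1 point per gene, with clusters formed without the 4 genes. At E15.5 the highest point is cluster 10 for Prrx1 and Prrx2 and cluster 16 for Foxd1, and the neuron-like cluster 2 lies at 650 for Meis2.

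Prrx1 and Prrx2 shared more high squares at E15.5 than any other pair of members. Of their 271 high squares each, 154 were common (56.8% of each), against 42 for Prrx2 with Foxd1, 26 for Prrx1 with Foxd1 (9.59%), 22 for Foxd1 with Meis2 (8.12%), 7 for Prrx1 with Meis2 (2.58%) and 3 for Prrx2 with Meis2 (1.11%). Pearson's r of the levels over the 2713 squares, which share a section and its depth, was 0.565 for Prrx1 with Prrx2 and from -0.031 to 0.272 for the other pairs. In section 2 at E9.5, Prrx1 and Prrx2 had 0 of 11 high squares in common (r = -0.487 over 108 squares, and -0.372 without areas of low Gnas). Foxd1 and Meis2 shared 4 of 11 there (36.4%), at r = 0.034, and the remaining pairs had 0 in common. The highest r of any pair in section 2 was 0.434, for Prrx2 with Meis2 (0.249 without areas of low Gnas). High squares are the top 10%, so independent placement would put about 10% of a gene's high squares in common at either stage. With 11 high squares per gene, 0 in common therefore says little about separation.

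Squares high for both Prrx genes at E15.5 (154 squares, 9654 cells) had levels of 43.8 for Prrx1, 33.6 for Prrx2 and 6.6 for Foxd1, and 13.3% of their cells (1284) held both Prrx genes. Squares high for Prrx1 only (117 squares, 6762 cells) had 25.9, 8.03 and 5.20, with 2.19% of cells holding both, and had Lox (3.73-fold) and the collagen gene Col5a2 (2.95-fold) among their raised genes. Squares high for Prrx2 only (117 squares, 7170 cells) had 7.45, 25.2 and 27.7, with 2.36% of cells holding both, and were led by Foxd1 itself (3.73-fold) and Crabp1, a retinoic acid binding protein (2.65-fold). Prrx2 thus had a Prrx1-rich and a Foxd1-rich part at this stage, and Foxd1 was under its section mean of 8.10 in the squares high for Prrx1.

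Within a square, cells with both Prrx1 and Prrx2 were somewhat more common at E15.5 than independent detection would give. At E15.5, 2305 cells had both Prrx1 and Prrx2 where 1650 were expected from the detection rates of each square, a ratio of 1.40 (95% Poisson interval 1.34 to 1.46). For Prrx1 the median ratio over the 295 other genes was 1.21, and Prrx2 ranked 5 among them. For Prrx2 the median was 1.22, and Prrx1 ranked 12. Against independence over the whole section, which ignores position, the ratio was 3.44. The within-square value varied with the setting. It was 1.16 in the 125775 cells with at least 50 counts, each thinned to 50. With detection set at 2 or more counts of each gene it was 1.79, and in cells with no other centre within 8 units 1.31. These settings also change the cells used or the cut-off, and what part depth had was not tested.

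The other pairs at E15.5 gave 1.32 for Prrx2 with Foxd1 (1507 cells), 1.31 for Prrx1 with Foxd1 (1137 cells), 1.18 for Prrx1 with Meis2, 1.17 for Prrx2 with Meis2 and 1.14 for Foxd1 with Meis2. The pairs with Meis2 were under the median ratio of 1.21 to 1.22 that the other members had with any gene. They were above the median of 1.13 that Meis2 had with any gene, where Prrx1, Prrx2 and Foxd1 ranked 19, 33 and 113 of 295. In section 2 the ratio was 1.27 for Prrx2 with Foxd1 (457 cells where 360 were expected; 1.16 to 1.39), 1.20 for Foxd1 with Meis2, 1.17 for Prrx1 with Foxd1, 1.15 for Prrx2 with Meis2, 1.07 for Prrx1 with Prrx2 (97 cells; 0.868 to 1.31) and 0.967 for Prrx1 with Meis2 (115 cells; 0.798 to 1.16). The intervals of the 3 pairs with Prrx1 included 1. The median ratio with any gene in section 2 was 1.09 for Prrx1, 1.165 for Prrx2, 1.12 for Foxd1 and 1.145 for Meis2. Pairs with Foxd1 were above the medians of both their genes, and no other pair was above either. In section 1 between 0 and 11 cells held any pair, so no ratio is read there. In cells with at least 50 counts, thinned to 50, the E15.5 ratios with Foxd1 were 1.14 for Prrx1 and 1.08 for Prrx2. Those with Meis2 were 1.02 for Prrx1, 0.991 for Prrx2 and 0.997 for Foxd1. The thinned ratios of section 2 were 1.16 for Prrx1 with Foxd1, 1.09 for Prrx2 with Foxd1 and for Foxd1 with Meis2, 1.06 for Prrx2 with Meis2, 0.640 for Prrx1 with Prrx2 (8 cells) and 0.496 for Prrx1 with Meis2 (11 cells).

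**Figure D5:**
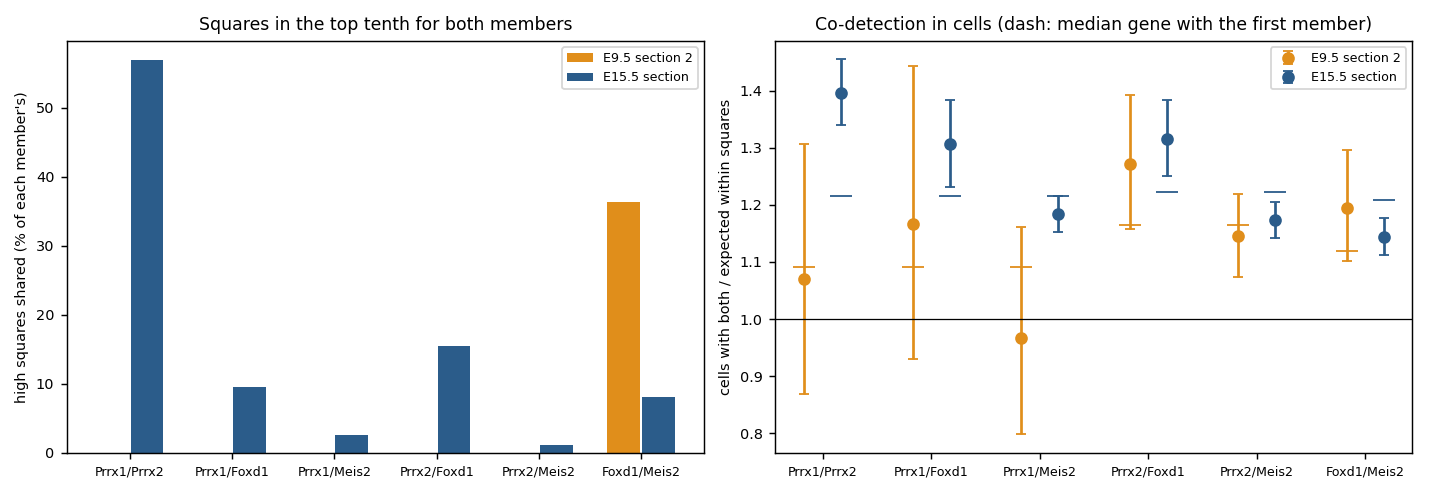
Share of high squares in common (percent) and ratio of cells holding both genes to the number expected within squares (with 95% Poisson intervals) for the 6 pairs of members, by section. Prrx1 with Prrx2 stands out at E15.5 with 56.8% of high squares in common, but not in E9.5 section 2. Its E15.5 ratio of 1.40 is the highest of the pairs, with an interval that overlaps those of Prrx2 with Foxd1 (1.32) and Prrx1 with Foxd1 (1.31).

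Cells with at least 2 counts of a member were then compared with cells that had 0 of it, as sums per section with the section as a block, again with edgeR's quasi-likelihood test. The positive cells numbered 6, 67 and 1857 for Prrx1 (section 1, section 2, E15.5), 3, 875 and 1745 for Prrx2, 3, 645 and 3079 for Foxd1, and 95, 1528 and 45644 for Meis2. Positive cells were deeper than negative cells, with medians at E15.5 of 182 against 80 counts for Prrx1, 187 against 80 for Prrx2, 184 against 80 for Foxd1 and 132 against 62 for Meis2. Of 295 other genes, edgeR called 0 (0%) for Prrx1, Prrx2 and Meis2 in either direction, with 0, 5 and 30 higher and 5, 12 and 21 lower at an unadjusted p under 0.05, in that order. DESeq2 called 25, 15 and 10. For Foxd1, 7 genes were called lower (2.37%) and 0 higher (0%), with 7 higher and 30 lower unadjusted, and DESeq2 called 18.

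The 3 genes lowest in Foxd1-positive cells were Gata4, Tbx20 and Car2. Gata4, a heart and gut factor, stood at 1.95 in Foxd1-positive against 107 in Foxd1-negative cells of section 2 and at 1.11 against 6.81 at E15.5 (-3.89 ± 0.89 on the log2 scale, adjusted p = 0.00195). Tbx20, a heart factor, stood at 3.13 against 56.6 and 1.92 against 11.4 (-3.12 ± 0.79, adjusted p = 0.00832). Car2, the carbonic anhydrase of red cells, stood at 4.38 against 14.6 and 2.79 against 69.5 (-2.95 ± 0.84, adjusted p = 0.0352). Section 1 had 3 Foxd1-positive cells with 210 counts in all and 0 counts of these genes. Without that section edgeR called 0 genes, and Gata4, Tbx20 and Car2 each had an adjusted p of 0.180. Requiring 3 Foxd1 counts also gave 0 calls, and DESeq2 did not call Gata4 (adjusted p = 0.266).

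The remaining 4 genes called lower, named after their values were seen, were Slc38a5, an amino acid transporter (-1.96, adjusted p = 0.000177 by edgeR), and the heart and gut factors Hand2 (-2.81, adjusted p = 0.0361), Nkx2-3 (-1.60, adjusted p = 0.0375) and Gata5 (-2.66, adjusted p = 0.0375). Each of the 7 was lower in Foxd1-positive cells in section 2 and at E15.5. At E15.5, however, Nkx2-3 and Gata5 were under the highest blank code in positive and negative cells, as was Slc38a5 in section 2. The number of calls moved widely with the sections used: 49 without section 2 and 91 without the E15.5 section.

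No member passed the test in cells positive for another, and for several pairs the larger sections pointed opposite ways. In Prrx1-positive cells Prrx2 was at 34.1 against 42.7 in Prrx1-negative cells of section 2, but at 31.8 against 5.57 at E15.5 (0.797 and 5.71 times; over all sections 0.55 ± 1.39, adjusted p = 0.997 by edgeR). In Prrx2-positive cells Prrx1 was at 2.39 against 7.86 in section 2 and at 30.1 against 5.56 at E15.5 (0.304 and 5.41 times; 0.39 ± 0.91, adjusted p = 0.971). The test of this difference between stages gave an adjusted p of 0.681. Foxd1 in Prrx2-positive cells was 0.612 times its level in negative cells in section 2 and 2.27 times at E15.5 (0.71 ± 0.79, adjusted p = 0.971).

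Meis2 in Foxd1-positive cells was at 112 against 72.3 in section 2 and at 96.4 against 166 at E15.5 (0.39 ± 0.68, adjusted p = 0.975 by edgeR). Its level in Prrx1-positive cells was 0.411 and 0.421 times that in negative cells (-2.12 ± 1.64, adjusted p = 0.997). Seen from the other side, Prrx1 in Meis2-positive cells was 0.206, 0.230 and 0.774 times its level in Meis2-negative cells of section 1, section 2 and E15.5 (-1.30 ± 0.62, adjusted p = 0.284), lower in 3 of 3 sections. The E9.5 values of this pair lie beside the areas of low Gnas, where Prrx1 was high and Meis2 low.

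The genes whose level followed a member's most closely over the squares of the E15.5 section included matrix genes for 3 of the 4. For Prrx1 they were Prrx2 (r = 0.565), the matrix gene Fbln2 (0.559) and the collagen gene Col1a2 (0.542). For Prrx2 they were the secreted glycoprotein gene Fstl1 (0.607), the collagen gene Col5a2 (0.600) and Col1a2 (0.596). Foxd1 had only weak companions, Cthrc1 (0.372), Fstl1 (0.354) and Bgn (0.350). The genes closest to Meis2 included Crabp1 (0.416) and Flrt2 (0.409). These are descriptions over 2713 squares of 1 section, which share depth and tissue borders.

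At E9.5 the measure was the lower r of the 2 sections, over 22 and 108 squares. In section 1 blank codes reached r = 0.702 with Prrx1 and 0.648 with Prrx2, so the section 1 values given for the genes closest to these members lie within or just above the range of blank codes. The genes closest to Meis2 included Gnas (0.916 in section 1 and 0.785 in section 2) and Nr1h2 (0.791 and 0.733), and without the areas of low Gnas the values for Gnas were 0.741 and 0.429. Prrx2 was followed by the annexin gene Anxa6 (0.677 and 0.719), the imprinted gene H19 (0.675 and 0.654) and Unc5b (0.579 and 0.767). Prrx1 was followed by Higd1b (0.727 and 0.706), Ctsz and Psmd3, and Foxd1 by Heyl (0.607 and 0.517), Selenop and Cfl1. Without the areas of low Gnas, Higd1b (0.658 and 0.537) still came first for Prrx1 and Anxa6 (0.838 and 0.730) for Prrx2. Foxd1 was then followed by Sparcl1 (0.603 and 0.637), Stra6 and Selenop. That setting left 13 squares in section 1 and 77 in section 2, and no range of blank codes was computed for it.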

How the data were processed

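The authors deposited counts of RNA molecules per segmented cell for 296 genes and 19 blank codes, with a table of cell centres and volumes in unstated units, per the file headers. How cells were outlined and codes were read is not given in the sources used here. Scanpy and Seurat are named, with no version, in the submitters' processing notes. The members, gene lists and tests were chosen with earlier results of these data known.

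Cells with fewer than 10 panel counts were left out. Levels carry 95% Poisson intervals and shares 95% Clopper-Pearson intervals, which cover counting error only. Counts were summed per section and tested with edgeR 4.0.16 in R 4.3.3 (TMM, quasi-likelihood, a minimum of 30 summed counts per gene, Benjamini-Hochberg threshold 0.05), with DESeq2 1.42.0 as an alternative. P-values measure only the spread between these sections. Clusters used 30 principal components, 15 neighbours and Leiden resolution 1 (igraph 0.11.9), separately by stage. Raised markers were at least 2-fold over the other cells of the stage, and no doublet caller was run. In Python 3.11.15, co-detection was computed in squares of 100 units with at least 20 cells.

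Genes named were the members, for each member the 5 highest and 3 lowest genes called with the same sign in all 3 sections, the 3 closest over squares, and leading genes of clusters and groups of squares. In data simulated for the stage comparison over 296 genes, 60 of 60 genes changed 8-fold were recovered with 1 false call. In data simulated for Prrx1-positive cells over 295 genes, 60 of 60 were recovered with 9 false calls. The simulated counts had a fixed spread for all genes and the same profile in every section, unlike these data. The recoveries therefore do not measure the power of the real tests, and a lack of calls does not show that no gene differs. Alternatives were other scalings and tools, cell and gene filters, square sizes, thinning to 50 counts, areas of low Gnas, cell volume, subtraction of blank codes and leaving out each section. Some genes that these rules pick are not reported here.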

Additional observations from a re-analysis of the deposited data

Results flagged for a closer look

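Gata4, Gata5, Nkx2-3, Car2 and Slc38a5, called lower in Foxd1-positive cells, were picked by an interaction term with stage in the same edgeR fit. The term also marked many other panel genes, so it did not single these out. Its p-values and counts are not given, since they set the E15.5 section against what is in effect section 2 alone. The 3 Foxd1-positive cells of section 1 had 0 counts of the genes named here. The differences are therefore values without replicate support. Values are the E15.5 minus the E9.5 difference on the log2 scale. Gata4 differed by 3.26, Gata5 by 2.20 and Nkx2-3 by 2.08, and each was more depleted at E9.5. Gata4 in Foxd1-positive cells was 0.0182 times its level in negative cells in E9.5 section 2 and 0.163 times at E15.5, Gata5 0.0642 and 0.277 times, and Nkx2-3 0.132 and 0.524 times. Car2 differed by -2.80 and Slc38a5 by -1.75, and both were more depleted at E15.5. Car2 was 0.301 and 0.0401 times its level in negative cells, and Slc38a5 0.441 and 0.122 times. Several of these ratios are between levels under the highest blank code, which stood at 3.798 in section 2 and 4.49 at E15.5. Slc38a5 was at 0.905 in positive and 2.05 in negative cells of section 2. At E15.5 Nkx2-3 was at 1.095 and 2.09 and Gata5 at 1.14 and 4.125.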

How the results depend on the processing

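No paired analysis was possible because the stages share fewer than 2 replicate numbers, and the numbers only follow the order of the samples. The 44 genes called between stages became 27 with upper-quartile scaling, 92 with DESeq2, 3 without areas of low Gnas and 11 scaled to cell volume. The change of Prrx1, near 0, turned to 0.21 with upper-quartile scaling, 0.049 with DESeq2, 0.87 without areas of low Gnas, 0.011 with the mean blank code subtracted and 0.0497 scaled to cell volume. Meis2 was called by DESeq2 (1.19, adjusted p = 0.00118). With either E9.5 section left out, values with no test ran from -0.27 to 0.48 for Prrx1, from -2.47 to 0.69 for Prrx2, from -1.55 to 1.02 for Foxd1 and from 1.18 to 1.30 for Meis2.

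Upper-quartile scaling called 2 genes for Prrx1 and 20 for Foxd1, and DESeq2 25 for Prrx1, 15 for Prrx2, 18 for Foxd1 and 10 for Meis2. Without areas of low Gnas there were 8 for Prrx2, 23 for Foxd1 and 1 for Meis2. Requiring 3 counts gave 3 for Prrx2 and 0 for Foxd1, requiring 1 gave 3 for Foxd1, and cells with no other centre within 8 units gave 2 for Foxd1. Leaving out a section gave 0 to 10 for Prrx2 and 0 to 91 for Foxd1. Gata4 lost its call with DESeq2 (adjusted p = 0.266).

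Among members in cells positive for another member, none of which passed the threshold in the main setting, some signs turned. Leaving out a section in turn gave -0.74 to 1.33 for Prrx2 with Prrx1-positive cells, -1.37 to 1.65 for Prrx1 and -0.999 to 0.12 for Meis2 with Prrx2-positive cells, -0.42 to 0.24 for Prrx1 and -0.13 to 1.32 for Prrx2 with Foxd1-positive cells, and -0.26 to 0.15 for Foxd1 with Meis2-positive cells. In Prrx2-positive cells Meis2 turned to 0.0373 with no near centre, 0.0298 at 1 count and 0.0698 at 3 counts, and Prrx1 to -0.12 at 1 count. In Foxd1-positive cells Prrx1 turned to 0.26 without areas of low Gnas and Meis2 to -0.22 at 1 count. The settings without the E15.5 section and the likeness without areas of low Gnas were chosen after the data were seen. The cause of these changes was not tested.

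Pairs of members sharing over 10% of high squares were 4 of 18 pair-sections, 7 with squares of 50 units and 10 with the top 20% of squares. One of the 4 was Prrx1 with Foxd1 in section 1, at 1 of 2 high squares. For the top 20% the cut stayed at 10%, although independent placement would give about 20%, so the 10 cannot be set against the 4. The Prrx1 and Prrx2 share at E15.5 ran from 43.3 to 63.9% over all alternatives. The count of pair-sections with a co-detection ratio over 1, 15 of 18, ran from 10 to 15. At resolution 0.5 the highest E15.5 cluster level was 17.7 for Prrx1, 16.5 for Prrx2 and 35.3 for Foxd1. Depth limits section 1 most, where Prrx2 and Foxd1 rest on 29 and 28 counts.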

Other observations

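The map of the E15.5 section shows Foxd1 along an edge of the largest Meis2 area, and the strip x 2000 to 2400, y 6200 to 7000, picked after the map was seen, was read in columns of 20 units. From x 2000 to 2240 the neuronal gene Stmn2 stood between 1022 and 1245, Meis2 between 2.00 and 10.5 and Foxd1 between 0 and 2.49. At x 2240 to 2260 Foxd1 rose to 23.5 (58 counts in 181 cells), and Vtn stood at 297. At x 2260 to 2280 Foxd1 was 37.4, Meis2 11.5 and Stmn2 43.7, and 78.3% of the 175 cells belonged to cluster 16, the cluster with the highest Foxd1 level. At x 2280 to 2300 Foxd1 reached 54.3 (95 counts in 121 cells) and Meis2 130. At x 2300 to 2320 Meis2 was 742 and at x 2320 to 2340 it was 949, with Foxd1 at 41.7 and 33.9. At x 2380 to 2400 Foxd1 was back at 5.53, Meis2 stood at 1094 and 75.5% of cells belonged to the neuron-like cluster 2. Foxd1 was thus raised over about 100 position units between a stretch with Stmn2 and little Meis2 and a stretch with both. The level of the mean blank code ran from 1.00 to 1.99 along the strip.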
